A study of Mus musculus with 12 samples.

Results

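The genes described here encode the machinery that copies DNA: the proteins that license and fire origins, the polymerases and their clamp, the enzymes that supply deoxynucleotides, a subunit of a chromatin assembly factor, the binding protein of histone mRNA and the E cyclins. They form a list of 46 genes sorted by role, and each is read as the average of the probe sets that carry no other symbol in the array's annotation. In all, 45 of the 46 genes had such a value, among 18193 genes with a value on these arrays, and Chaf1a was not analysed here. The 45 genes were read by 98 probe sets, with 1 probe set for 11 genes and up to 5 for Mcm3.

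The arrays measured total RNA of 4 thymocyte subsets of C57BL/6 mice, each sorted by flow cytometry and read on 3 Affymetrix arrays. DN cells carried neither CD4 nor CD8 and no TCRb, DP cells carried both CD4 and CD8, CD4SP cells carried CD4 with high TCRb and no CD8, and CD8SP cells carried CD8 with high TCRb and no CD4. The cells of every group were lysed without culture and were not treated, and the labels give neither the age of the mice nor whether mice were pooled. Nothing in the labels ties the replicates to separate animals, so the p-values reflect array-to-array spread that may be technical, and the number of arrays limits the precision.

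A dividing cell loads the MCM helicase onto origins in the G1 phase, when the origin recognition complex, CDC6 and CDT1 are present, and activates it at the start of S phase with CDC45 and the GINS complex. Polymerases alpha, delta and epsilon then copy the strands with the sliding clamp PCNA, its loader RFC and the single-strand binding complex RPA, while ribonucleotide reductase and the thymidylate enzymes supply the building blocks. E2F factors are known to switch on many of these genes as a cell commits to S phase. In the thymus, DN cells that have rearranged the TCR beta chain divide rapidly on their way to the DP stage, most DP cells have stopped dividing, and mature single-positive cells are largely at rest.

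The deposited values are logarithms with the DP average of 3 arrays subtracted, read here as log2 although the base is not stated, so DP lies at 0 for each gene and neither absolute levels nor levels relative to background are known. Differences are given on the log2 scale with the limma standard error (n = 3 arrays a group), and a gene is called at an adjusted p under 0.05 over all 18193 genes. Only called genes are said to have risen or fallen. Array medians over all genes lay between -0.056 and 0.064. CD8SP replicate 1 and DN replicate 1 had the lowest weights when the arrays were weighted by their spread (0.28 and 0.53, against 0.69 to 1.81 for the other 10). The sort markers matched the labels of the single-positive subsets: Cd4 lay between -9.20 and -8.39 on the CD8SP arrays and between -0.76 and -0.52 on the CD4SP arrays, and Cd8a lay between -6.84 and -6.35 on the CD4SP arrays and between -0.43 and -0.20 on the CD8SP arrays. The mean of 3 sort genes was -3.05, -5.02 and -4.34 on the DN arrays, highest on replicate 1. Of these 3 genes, 1 was lower in CD8SP than in DN and 2 were lower in CD4SP than in DN. Ptcra, the pre-TCR alpha chain of DN cells, lay between 1.08 and 1.37 on the DN arrays. The gate for DN cells, as labelled, rests on the absence of CD4, CD8 and TCRb alone, and the mean of 15 myeloid and dendritic cell markers was 1.95, 2.68 and 3.19 on the DN arrays, against -0.16 to 0.19 on the other 9.

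The order of the subsets was the same for most of the machinery. The group means ran DN, DP, CD8SP, CD4SP from high to low for 33 of the 45 replication genes. In another 7 they ran DN, CD8SP, DP, CD4SP. The DN mean was the highest for 42 genes, all but Rpa3, Rrm2 and Ccne1, where 26.4% of all genes had their highest mean in DN. The CD4SP mean was the lowest for 43 genes, all but Pole2 and Chaf1b, where 17.2% of all genes had their lowest mean in CD4SP. For 33 genes all 3 DN arrays lay above the other 9 and all 3 CD4SP arrays lay below the other 9, a pattern shown by 1.85% of all genes.

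**Figure D1:**
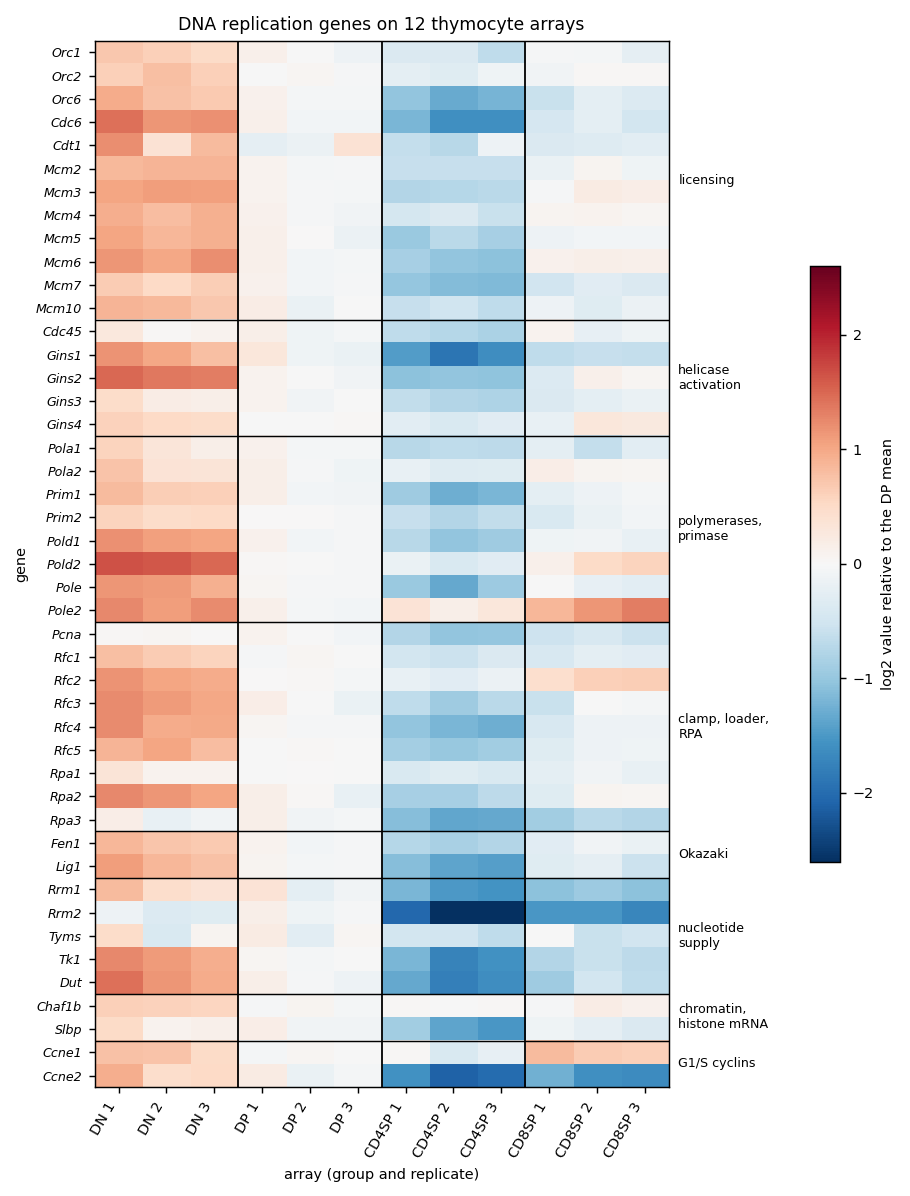
Log2 value relative to the DP mean (colour) of 45 replication genes (rows, grouped by role) on the 12 arrays (columns, by group and replicate). The DN columns are red for nearly all genes and the CD4SP columns blue, while the CD8SP columns are pale for most genes and red for Pole2, Ccne1, Rfc2 and, on replicates 2 and 3, Pold2.

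From DN to DP, most of the replication genes fell. Of the 45 genes 36 fell, 0 rose and 9 were not called, where 36.6% of all genes were called, 18.8% lower and 17.8% higher. The median difference was -0.80 over the replication genes and 0.04 over all genes, and 14 of the 36 fell at least 2-fold, as did 5.56% of all genes. In the 9 genes that were not called, Cdc45, Gins3, Pola1, Pcna, Rpa1, Rpa3, Rrm2, Tyms and Slbp, the difference lay between -0.34 and 0.26. The groups did not overlap in 39 of the 45 genes, against 49.8% of all genes. Without DN replicate 1, 33 fell. In bulk RNA, fewer cells of a dividing kind and less RNA per cell cannot be told apart, here or in the comparisons that follow. The markers of other cell types also moved between these groups: of 15 myeloid and dendritic cell markers 9 fell from DN to DP, of 8 NK and innate lymphoid markers 7 fell, and of 8 B cell markers 3 fell. Of 2 γδ T cell markers 2 fell, and of 4 mature single-positive markers 2 fell. Of 5 erythroid markers 1 fell and 1 rose, and of 12 thymic stroma markers 2 fell. Their part in the replication gene differences was not tested. DN replicate 1 had the lowest mean of the myeloid, NK and B cell lists among the DN arrays (1.95, 1.64 and 0.45), and the highest mean of the replication genes (0.87, against 0.69 and 0.66).

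From DP to CD4SP, 35 of the 45 genes fell, 0 rose and 10 were not called, where 32.7% of all genes were called, 16.2% lower and 16.4% higher. The median difference was -0.78, against 0.04 over all genes, and 16 genes fell at least 2-fold (4.05% of all genes). The groups did not overlap in 42 genes (49.4% of all genes). From DP to CD8SP the picture was mixed, with 14 genes lower, 4 higher and 27 not called, where 39.0% of all genes were called, 20.9% lower and 18.2% higher. The members' share of calls, 18 of 45, was close to that of all genes. The median difference was -0.19, against 0.0018 over all genes, and 3 genes fell at least 2-fold (4.60% of all genes). The groups did not overlap in 27 genes (48.6% of all genes). For all 27 genes not called, the 95% interval of the CD8SP minus DP difference lay within 2-fold, and for 23 it lay within 0.5 on the log2 scale on either side of 0. The widest bounds were -0.85 for Tyms and 0.39 for Gins4. Both comparisons share the 3 DP arrays, so their values are given side by side and the direct comparison of CD4SP with CD8SP tests their difference. With the arrays quantile-normalized, 3 genes fell in CD8SP in place of 14, where 15.2% of all genes were called in place of 39.0%.

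Set directly against each other, the single-positive subsets differed in 34 of the 45 genes, all 34 lower in CD4SP. Of all genes 12.7% were called in this comparison, 4.91% lower and 7.78% higher in CD4SP, and the median difference was -0.69 over the replication genes and 0.03 over all genes. The groups did not overlap in 40 of the 45 genes, against 30.3% of all genes, and 4 were lower at least 2-fold (0.874% of all genes). With the arrays quantile-normalized, 9 genes were lower in CD4SP in place of 34, where 1.26% of all genes were called. The 11 genes not called were Orc1, Orc2, Cdt1, Pola1, Pola2, Rfc1, Rpa1, Rrm1, Tyms, Chaf1b and Ccne2, all with a difference below 0 (from -0.40 to -0.080). Some of their probe sets, tested singly over all probe sets, were called lower in CD4SP. These were of Cdt1 (-1.10 and -0.94), Pola1 (-0.88), Pola2 (-0.84), Orc1 (-0.63) and Rrm1 (-0.57). The remaining probe sets of the 11 genes were not called, among them the third of Cdt1 (1.59). Of 8 NK and innate lymphoid markers, several of which CD8 T cells also carry, 6 were lower in CD4SP than in CD8SP (list means of 0.35 to 0.65 and 2.51 to 2.76), and their part was not tested. The B cell, myeloid, erythroid, stromal and γδ T cell lists held 1, 1, 0, 1 and 0 called genes in this comparison, of 8, 15, 5, 12 and 2.

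Against DN, all 45 genes were lower in CD4SP, 35 of them at least 2-fold, where 43.7% of all genes were called, 21.0% lower, 22.6% higher and 6.54% lower by at least 2-fold. In CD8SP 41 genes were lower than in DN and 4 were not called (Cdc45, Pole2, Tyms and Ccne1), where 40.9% of all genes were called, 22.3% lower and 18.7% higher, and 20 were lower by at least 2-fold (5.33% of all genes). The groups did not overlap in 45 genes for CD4SP and 41 for CD8SP (55.5% and 49.7% of all genes). The median differences from DN were -1.54 in CD4SP and -0.99 in CD8SP, against 0.07 and 0.03 over all genes. The largest were those of Dut (-2.77 ± 0.16, 6.81-fold), Cdc6 (-2.72 ± 0.13, 6.6-fold), Gins1 (-2.63 ± 0.15) and Tk1 (-2.60 ± 0.13), all in CD4SP. The call of Tyms in CD4SP against DN (-0.60 ± 0.22, limma, adjusted p = 0.0465) was lost without DN replicate 1 (-0.39, adjusted p = 0.169) or replicate 3, DP replicate 1 or 3, any CD4SP array, or CD8SP replicate 2 or 3 (adjusted p from 0.0511 to 0.169). Single probe sets of Tyms were called in opposite directions in this comparison.

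**Figure D2:**
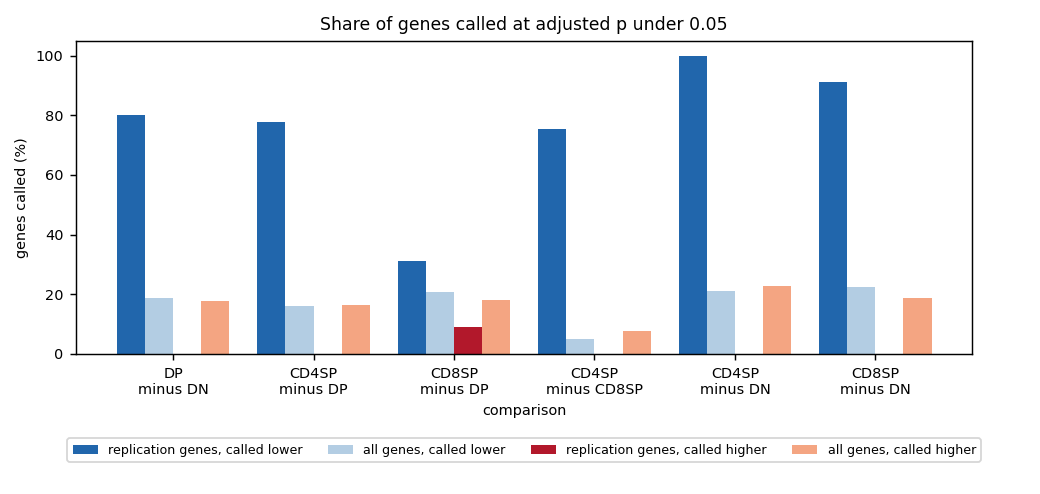
Share of genes called (percent, at an adjusted p under 0.05) in each of 6 comparisons, for the 45 replication genes (dark bars) and all 18193 genes (light bars), lower in blue and higher in red. The replication genes exceed all genes among those called lower in all 6 comparisons, least so in CD8SP minus DP (14 of 45 against 20.9%), the only comparison with replication genes called higher.

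Sequence upstream of the start site was available for 37 of the 45 genes, in RefSeq promoter windows of GRCm38.p6 that run from 250 bases before the start to 50 after it. The E2F type of site was searched on both strands as TTT, then G or C, then G or C, then CGC. Of the 37 genes 13 held at least 1 such match in the 300 bases (35.1%), as did 2.6% of 27025 genes with a promoter window. In the 250 bases before the start alone, 8 of the 37 held a match (21.6%, against 2.16% of all genes). The 8 are shown here because they carry the match upstream of genes that load, activate and run the fork, as 60 bases each, 5′ to 3′ on the gene's strand, with the match in capitals.
Mcm6: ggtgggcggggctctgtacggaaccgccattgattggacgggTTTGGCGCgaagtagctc
Mcm5: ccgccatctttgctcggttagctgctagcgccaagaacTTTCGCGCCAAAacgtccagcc
Mcm7: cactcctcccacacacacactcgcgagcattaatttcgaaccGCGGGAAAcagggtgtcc
Cdc6: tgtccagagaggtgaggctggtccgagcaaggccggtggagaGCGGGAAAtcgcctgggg
Orc1: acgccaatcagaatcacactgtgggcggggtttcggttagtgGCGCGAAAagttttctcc
Gins3: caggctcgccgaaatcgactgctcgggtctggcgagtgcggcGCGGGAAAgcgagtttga
Rfc3: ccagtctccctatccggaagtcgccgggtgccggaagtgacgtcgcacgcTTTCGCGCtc
Pola1: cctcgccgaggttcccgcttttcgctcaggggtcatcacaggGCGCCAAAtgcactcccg
The windows lie at chr1:128359735-128359794 (minus strand) for Mcm6, chr8:75109318-75109377 (plus strand) for Mcm5, chr5:138172031-138172090 (minus strand) for Mcm7, chr11:98907971-98908030 (plus strand) for Cdc6, chr4:108579385-108579444 (plus strand) for Orc1, chr8:95633476-95633535 (plus strand) for Gins3, chr5:151651209-151651268 (minus strand) for Rfc3 and chrX:93632276-93632335 (minus strand) for Pola1. In Mcm5 a pair of matches on opposite strands overlap, and in Rfc3 the match ends 3 bases before the start. These are matches of letters, and no binding was measured in these cells.

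The letters CCAAT, the core of the site of the NF-Y factor, were found on either strand before the start of 23 of the 37 genes (62.2%, against 37.5% of all genes). The letters TTTGAA or TTCGAA, known as the CHR and common upstream of mitotic genes, were found in 7 of the 37 (18.9%, against 19.6% of all genes). The upstream windows of both ribonucleotide reductase subunits are shown because these genes, with Ccne2, were the 3 that fell at least 2-fold from DP to CD8SP. They hold CCAAT (capitals) and no E2F type match in the letters searched. In CD4SP, Ccne2, Gins1, Dut, Tk1 and Cdc6 fell further than Rrm1. None of these was among the 23 genes with CCAAT. Cdc6 had a window, but not every gene did, and whether the others had one is not shown. A lack of CCAAT can therefore not be read for them.
Rrm2: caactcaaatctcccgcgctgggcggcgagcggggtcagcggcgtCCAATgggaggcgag
Rrm1: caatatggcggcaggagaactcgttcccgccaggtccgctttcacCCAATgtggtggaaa
They lie at chr12:24708159-24708218 (plus strand) for Rrm2 and chr7:102441605-102441664 (plus strand) for Rrm1.

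The licensing genes, which encode the MCM helicase, its loaders and MCM10, fell together from DN to DP. All 12 measured members fell (Orc1, Orc2, Orc6, Cdc6, Cdt1, Mcm2 to Mcm7 and Mcm10), with a median difference of -0.84. From DP to CD4SP 10 of the 12 fell and 2 were not called, Orc2 and Cdt1. From DP to CD8SP 3 of the 12 fell, Orc6, Cdc6 and Mcm7, and 9 were not called, so 25% were called, below the 39.0% of all genes. In the direct comparison 9 of the 12 were lower in CD4SP than in CD8SP. Over all genes the shares called lower were 18.8%, 16.2%, 20.9% and 4.91% in the same order. The shares called higher were 17.8%, 16.4%, 18.2% and 7.78%. The falls and rises counted in the role groups and lists below stand beside these shares.

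The MCM2-7 hexamer is the motor of the replicative helicase, and its 6 genes changed alike in 3 of these steps. Mcm6, which carries its E2F type match in the window shown above, showed the largest difference between the single-positive subsets. Its log2 values were 1.15, 1.01 and 1.21 on the DN arrays, 0.13, -0.071 and -0.061 on the DP arrays, -0.87, -1.02 and -1.07 on the CD4SP arrays and 0.11, 0.16 and 0.14 on the CD8SP arrays. All 3 DN arrays were high, all 3 CD4SP arrays were low, and the CD8SP arrays overlapped those of DP. Mcm6 fell by 1.13 ± 0.090 from DN to DP (2.18-fold, limma, adjusted p = 4.33e-06) and by 0.99 ± 0.090 from DP to CD4SP (1.98-fold, adjusted p = 9.87e-06). CD8SP differed from DP by 0.14 ± 0.090, with a 95% interval from -0.063 to 0.33, and CD4SP lay below CD8SP by 1.12 ± 0.090 (2.18-fold, adjusted p = 3.85e-05).

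The other MCM subunits followed the same course. Over the 6 genes the difference from DN to DP lay between -1.13 and -0.61, all called, and that from DP to CD4SP between -1.10 and -0.48, all called. From DP to CD8SP only Mcm7 fell (-0.39 ± 0.088, adjusted p = 0.00481), and the differences of the other 5 lay between -0.093 and 0.14. Mcm7 lay at -0.49, -0.30 and -0.37 on the CD8SP arrays and -1.01, -1.12 and -1.16 on the CD4SP arrays, so both subsets lay below all 3 DP arrays (0.12, -0.077 and -0.040). Mcm3 lay at -0.76, -0.73 and -0.70 on the CD4SP arrays, which differed by little among themselves, and at -0.034, 0.21 and 0.17 on the CD8SP arrays, which overlapped DP (0.085, -0.037 and -0.048). All 6 were lower in CD4SP than in CD8SP, from -1.12 for Mcm6 to -0.52 for Mcm2.

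Cdc6, the ATPase that helps ORC to load the helicase, had the widest span of the licensing genes. It lay at 1.44, 1.15 and 1.19 on the DN arrays, 0.13, -0.063 and -0.069 on the DP arrays, -1.19, -1.60 and -1.60 on the CD4SP arrays and -0.43, -0.26 and -0.47 on the CD8SP arrays, and no 2 of the groups overlapped. It fell by 1.26 ± 0.13 from DN to DP (2.39-fold, limma, adjusted p = 2.56e-05) and by 1.46 ± 0.13 from DP to CD4SP (2.76-fold, adjusted p = 8.31e-06), and it was lower in CD4SP than in CD8SP by 1.08 ± 0.13. Its smaller fall from DP to CD8SP (-0.39 ± 0.13, adjusted p = 0.0354) was lost without any 1 of the DP arrays, CD8SP replicate 1 (-0.37, adjusted p = 0.0812) or CD8SP replicate 3 (adjusted p from 0.0575 to 0.118 over these).

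As means over their probe sets, the changes of the measured subunits of the origin recognition complex were unlike in size. Orc6 lay at 0.97, 0.77 and 0.67 on the DN arrays, 0.11, -0.055 and -0.051 on the DP arrays, -1.04, -1.31 and -1.22 on the CD4SP arrays and -0.58, -0.25 and -0.36 on the CD8SP arrays, and fell by 1.19 ± 0.12 from DP to CD4SP. Orc1, the ATPase subunit, fell by 0.60 ± 0.11 from DN to DP and by 0.47 ± 0.11 from DP to CD4SP. Of the 2 probe sets of Orc1, 1 fell in both steps (-1.09 and -0.74). The other had no call in any comparison (-0.11 and -0.21 in these steps), so the size of the Orc1 change depends on the probe set. Orc2 fell by 0.68 ± 0.082 from DN to DP, and differed from DP by -0.23 ± 0.082 in CD4SP (adjusted p = 0.0549) and -0.010 ± 0.082 in CD8SP, neither called. In CD4SP, Orc2 was called without CD4SP replicate 3 (-0.29, adjusted p = 0.0377) or CD8SP replicate 1 (-0.23, adjusted p = 0.0424). Orc6 in CD8SP (-0.39 ± 0.12, adjusted p = 0.0201) was not called without DP replicate 1 (-0.34, adjusted p = 0.0722) or CD8SP replicate 1 (-0.30, adjusted p = 0.0647). Mcm10, which helps to activate the loaded helicase, was lower in CD4SP than in CD8SP by 0.39 ± 0.10, a call lost without any 1 of the CD4SP arrays or CD8SP replicate 1 (-0.35, adjusted p = 0.0664) or 3 (adjusted p from 0.056 to 0.108 over these).

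Cdt1, the loading partner of CDC6, was read by 3 probe sets that disagreed in spread. As a mean over them it lay at 1.21, 0.38 and 0.82 on the DN arrays, -0.24, -0.15 and 0.39 on the DP arrays, -0.61, -0.71 and -0.12 on the CD4SP arrays and -0.38, -0.34 and -0.28 on the CD8SP arrays. One probe set spread widely, with -1.10, -0.26 and 1.36 on the DP arrays. The other 2 probe sets lay between 0.89 and 1.11 on the DN arrays, between -1.14 and -0.76 on the CD4SP arrays and between -0.26 and 0.12 on the CD8SP arrays. Tested singly over all probe sets, each of these fell from DP to CD4SP (-1.03, adjusted p = 3.23e-05, and -0.96, adjusted p = 0.000288) and neither was called in CD8SP (0.08 and -0.02). The fall of the mean from DN to DP (-0.80 ± 0.23, adjusted p = 0.0174) was lost without DN replicate 1 (-0.60, adjusted p = 0.0648), DP replicate 1 or DP replicate 2 (adjusted p up to 0.0677).

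The 5 genes of helicase activation encode CDC45 and the 4 subunits of GINS, which join the MCM ring to make it unwind DNA. From DN to DP 3 fell and 2 were not called, from DP to CD4SP 4 fell, from DP to CD8SP 1 fell, and all 5 were lower in CD4SP than in CD8SP. The share called from DP to CD8SP, 20%, was below the 39.0% of all genes. Gins1 lay at 1.16, 1.001 and 0.78 on the DN arrays, 0.29, -0.12 and -0.17 on the DP arrays, -1.45, -1.89 and -1.61 on the CD4SP arrays and -0.67, -0.59 and -0.63 on the CD8SP arrays, and no 2 groups overlapped. It fell by 1.65 ± 0.15 in CD4SP (3.14-fold, limma, adjusted p = 9.81e-06) and by 0.63 ± 0.15 in CD8SP (adjusted p = 0.00662). Gins2 lay at 1.50, 1.38 and 1.34 on the DN arrays, -1.06, -1.02 and -1.04 on the CD4SP arrays and -0.36, 0.13 and 0.056 on the CD8SP arrays. It fell by 1.41 ± 0.12 from DN to DP and by 1.04 ± 0.12 from DP to CD4SP, while CD8SP differed from DP by -0.057 ± 0.12.

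Gins3 and Gins4 had smaller differences. Gins3 differed between DN and DP by -0.28 ± 0.10 (adjusted p = 0.0603, and called without DN replicate 3, -0.34, adjusted p = 0.0455), and it fell by 0.73 ± 0.10 from DP to CD4SP. Gins4 fell by 0.53 ± 0.12 from DN to DP and differed from DP by -0.32 ± 0.12 in CD4SP and 0.12 ± 0.12 in CD8SP, neither called. Without CD8SP replicate 1, Gins4 was called in both, lower in CD4SP (-0.32, adjusted p = 0.00436) and higher in CD8SP (0.28, adjusted p = 0.0149). In CD4SP against CD8SP, Gins4 (-0.44 ± 0.12, adjusted p = 0.0329) lost its call without DP replicate 2 or 3 or any CD4SP array, or CD8SP replicate 2 (-0.36, adjusted p = 0.113) or 3. The same comparison for Gins3 (-0.47 ± 0.10) lost it without CD4SP replicate 2 or 3 (-0.43, adjusted p = 0.062) or CD8SP replicate 3. Cdc45 fell by 0.74 ± 0.11 from DP to CD4SP as the mean of 2 probe sets that differed. One lay at 0.91, 0.65 and 0.44 on the DN arrays and at -1.26, -1.56 and -1.64 on the CD4SP arrays, and the other at -0.34, -0.57 and -0.25 and at -0.05, 0.07 and 0.01. In CD8SP against DN these 2 probe sets were called in opposite directions (-1.11 and 0.67).

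The polymerases and primase held both the largest fall from DN to DP and the largest rise in CD8SP. Of 8 genes 7 fell from DN to DP, and from DP to CD4SP 5 fell and 3 were not called (Pola2, Pold2 and Pole2). From DP to CD8SP 2 rose, Pold2 and Pole2, 1 fell, Pola1, and 5 were not called, so 37.5% were called, near the 39.0% of all genes. Pold2, the second subunit of polymerase delta, lay at 1.66, 1.62 and 1.49 on the DN arrays, 0.038, -0.013 and -0.025 on the DP arrays, -0.17, -0.39 and -0.29 on the CD4SP arrays and 0.12, 0.51 and 0.57 on the CD8SP arrays. The DN arrays stood far above the rest, and the groups did not overlap. Pold2 fell by 1.59 ± 0.12 from DN to DP (3.01-fold, limma, adjusted p = 2.38e-06). It rose by 0.40 ± 0.12 from DP to CD8SP (adjusted p = 0.0187), a call lost without DP replicate 2 or 3, CD8SP replicate 2 or CD8SP replicate 3 (0.32, adjusted p = 0.071).

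Pole2, the second subunit of the leading-strand polymerase epsilon, lay near its DN level in CD8SP. It lay at 1.25, 1.08 and 1.22 on the DN arrays, 0.12, -0.047 and -0.077 on the DP arrays, 0.35, 0.15 and 0.30 on the CD4SP arrays and 0.86, 1.15 and 1.32 on the CD8SP arrays. The CD8SP arrays overlapped those of DN, and all 3 CD4SP arrays lay above all 3 DP arrays. Pole2 fell by 1.19 ± 0.12 from DN to DP, rose by 1.11 ± 0.12 from DP to CD8SP (2.16-fold, limma, adjusted p = 3.09e-05), and differed between CD8SP and DN by -0.074 ± 0.12 (95% interval -0.34 to 0.19). In CD4SP it differed from DP by 0.27 ± 0.12 (adjusted p = 0.117), and it was called higher there without CD8SP replicate 1 (0.27, adjusted p = 0.0461). Both of its probe sets rose from DP to CD8SP (1.06, adjusted p = 2.66e-05, and 1.16, adjusted p = 0.000167).

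The catalytic subunits of both polymerases were not called in CD8SP. Pole, the catalytic subunit of polymerase epsilon, lay at -0.97, -1.32 and -0.95 on the CD4SP arrays and -0.014, -0.21 and -0.28 on the CD8SP arrays, fell by 1.08 ± 0.12 from DP to CD4SP and differed from DP by -0.17 ± 0.12 in CD8SP. Pold1, that of polymerase delta, lay at -0.72, -1.03 and -0.93 and -0.12, -0.10 and -0.20 in the same order, fell by 1.10 ± 0.10 from DN to DP and by 0.89 ± 0.10 from DP to CD4SP, and differed from DP by -0.14 ± 0.10 in CD8SP. Prim1, the primase subunit that makes the RNA primers, fell by 0.69 ± 0.11 and 1.13 ± 0.11 in the same steps, with CD8SP at -0.26, -0.12 and -0.047, and was 1.98-fold lower in CD4SP than in CD8SP (-0.98 ± 0.11, adjusted p = 0.000426). Its partner Prim2 fell by 0.52 ± 0.091 and 0.67 ± 0.091. Of the 3 probe sets of Prim2, 1 lay between -0.30 and 0.11 on all 12 arrays, and the other 2 fell from DP to CD4SP by 0.83 and 1.18.

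For polymerase alpha, which extends the primers, Pola1 and Pola2 differed in their calls as means over probe sets that disagreed. Pola1 lay at 0.57, 0.31 and 0.15 on the DN arrays, -0.73, -0.67 and -0.68 on the CD4SP arrays and -0.26, -0.61 and -0.28 on the CD8SP arrays, and fell by 0.69 ± 0.12 in CD4SP. Its fall in CD8SP (-0.38 ± 0.12, adjusted p = 0.0315) was lost without any 1 of the DP arrays or CD8SP replicate 2 (-0.27, adjusted p = 0.117), and from DN to DP (-0.34 ± 0.12) it was called without DN replicate 3 (-0.44, adjusted p = 0.0261) or CD8SP replicate 1 or 2. Pola1 too had 1 probe set with no call in any comparison, beside 1 that fell by 1.48 from DP to CD4SP. Pola2 fell by 0.48 ± 0.12 from DN to DP and differed from DP by -0.29 ± 0.12 in CD4SP and 0.10 ± 0.12 in CD8SP, and in CD4SP it was called without DN replicate 1 (-0.29, adjusted p = 0.0321). Of the 3 probe sets of Pola2, 1 fell from DN to DP (-1.04) and from DP to CD4SP (-0.70). The others had no call in any comparison.

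The clamp, the clamp loader and RPA were 9 genes, of which 6 fell from DN to DP, 8 fell from DP to CD4SP, and 3 fell and 1 rose from DP to CD8SP. The share called in the last of these, 44.4%, was near the 39.0% of all genes. Pcna, the sliding clamp, was not called from DN to DP. It lay at 0.039, 0.053 and 0.020 on the DN arrays and 0.083, -0.019 and -0.064 on the DP arrays, which overlapped, and differed by -0.037 ± 0.087 (95% interval -0.23 to 0.15). On the CD4SP arrays it lay at -0.77, -1.02 and -0.997 and on the CD8SP arrays at -0.55, -0.42 and -0.57, below every DP array. It fell by 0.93 ± 0.087 in CD4SP (limma, adjusted p = 1.2e-05) and by 0.51 ± 0.087 in CD8SP (adjusted p = 0.000776), and was lower in CD4SP than in CD8SP by 0.42 ± 0.087 (adjusted p = 0.0104).

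Of the 5 subunits of the clamp loader RFC, all 5 fell from DN to DP, by 0.68 for Rfc1 to 1.12 for Rfc3. Rfc3, Rfc4 and Rfc5 fell from DP to CD4SP and were not called in CD8SP: Rfc4 lay at -1.03, -1.19 and -1.27 on the CD4SP arrays and -0.42, -0.14 and -0.13 on the CD8SP arrays, and fell by 1.16 ± 0.11 in CD4SP (2.24-fold). Rfc2 went the other way in CD8SP. It lay at 1.17, 1.03 and 0.98 on the DN arrays, 0.017, 0.026 and -0.043 on the DP arrays, -0.19, -0.30 and -0.15 on the CD4SP arrays and 0.44, 0.62 and 0.65 on the CD8SP arrays, with no overlap between CD8SP and DP. It rose by 0.57 ± 0.086 from DP to CD8SP (limma, adjusted p = 0.000344) and differed from DP by -0.21 ± 0.086 in CD4SP, where it was called lower without CD8SP replicate 1 (-0.21, adjusted p = 0.0464). All 3 of its probe sets were called higher in CD8SP (0.32, 0.68 and 0.71). Rfc1, the large subunit, fell in both subsets (-0.47 ± 0.084 in CD4SP and -0.32 ± 0.084 in CD8SP) and did not differ by call between them. In CD4SP against CD8SP, Rfc3 (-0.55 ± 0.15, adjusted p = 0.0392) lost its call without any 1 of the CD4SP arrays, CD8SP replicates 2 or 3, DN replicates 2 or 3 or DP replicate 2 (adjusted p from 0.0507 to 0.134), and its CD8SP arrays lay at -0.57, -0.0028 and -0.055.

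The 3 subunits of RPA, which coats single-stranded DNA, were called in different steps. Rpa2 fell by 1.14 ± 0.13 from DN to DP and by 0.80 ± 0.13 from DP to CD4SP, and lay at -0.31, 0.080 and 0.057 on the CD8SP arrays, which overlapped DP. Rpa3, the smallest subunit, lay at 0.16, -0.20 and -0.094 on the DN arrays, 0.15, -0.092 and -0.057 on the DP arrays, -1.11, -1.35 and -1.33 on the CD4SP arrays and -0.90, -0.71 and -0.75 on the CD8SP arrays. DN and DP overlapped, and both single-positive subsets lay below them. Rpa3 differed by 0.044 ± 0.12 from DN to DP and fell by 1.26 ± 0.12 in CD4SP and 0.79 ± 0.12 in CD8SP. Its difference between these subsets (-0.47 ± 0.12, adjusted p = 0.0244) lost its call without replicate 2 or 3 of CD4SP (-0.44, adjusted p = 0.0881) or of CD8SP. Rpa1, the large subunit, had small differences throughout, from -0.54 in CD4SP against DN to -0.17 in DP against DN, and fell by 0.37 ± 0.085 from DP to CD4SP.

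Okazaki fragments are trimmed by the flap endonuclease FEN1 and sealed by DNA ligase 1. Both genes fell from DN to DP (Fen1 -0.76 ± 0.085, Lig1 -0.90 ± 0.12) and from DP to CD4SP (Fen1 -0.78 ± 0.085, Lig1 -1.31 ± 0.12, 2.48-fold). Fen1 lay at -0.74, -0.83 and -0.77 on the CD4SP arrays and -0.29, -0.089 and -0.18 on the CD8SP arrays. Lig1 lay at -1.10, -1.38 and -1.44 and -0.32, -0.24 and -0.55 in the same order, and both genes were lower in CD4SP than in CD8SP (-0.60 ± 0.085 and -0.94 ± 0.12). The fall of Lig1 from DP to CD8SP (-0.37 ± 0.12, adjusted p = 0.0326) was lost without any 1 of the DP arrays or CD8SP replicate 3 (-0.28, adjusted p = 0.117).

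The nucleotide supply enzymes fell in both single-positive subsets. Of 5 genes 4 fell from DP to CD4SP and 4 fell from DP to CD8SP, in each case all but Tyms, with median differences of -1.49 and -0.69. From DN to DP 3 fell, Rrm1, Tk1 and Dut. Rrm2, the small subunit of ribonucleotide reductase and its S-phase-limited part, lay at -0.12, -0.35 and -0.31 on the DN arrays, 0.15, -0.12 and -0.028 on the DP arrays, -2.04, -2.60 and -2.60 on the CD4SP arrays and -1.52, -1.52 and -1.70 on the CD8SP arrays. All 3 DN arrays lay at or below the lowest DP array, a difference that was not called, and both single-positive subsets lay more than 1 log2 unit below every DN and DP array. Rrm2 differed by 0.26 ± 0.15 from DN to DP (adjusted p = 0.204). It fell by 2.42 ± 0.15 from DP to CD4SP, the largest fall of the 45 genes (5.34-fold, limma, adjusted p = 5.85e-07), and by 1.58 ± 0.15 from DP to CD8SP (2.99-fold, adjusted p = 1.18e-05).

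Rrm1, the large subunit, lay at 0.83, 0.46 and 0.36 on the DN arrays, 0.35, -0.26 and -0.085 on the DP arrays, -1.19, -1.50 and -1.57 on the CD4SP arrays and -1.07, -0.94 and -1.08 on the CD8SP arrays. It fell by 1.42 ± 0.17 in CD4SP and 1.03 ± 0.17 in CD8SP, and the difference between these subsets was not called (-0.39 ± 0.17, adjusted p = 0.178). Its fall from DN to DP (-0.55 ± 0.17) was lost without DN replicate 1 (-0.41, adjusted p = 0.101), DP replicate 2 or DP replicate 3. Tk1, the thymidine kinase of dividing cells, lay at 1.26, 1.11 and 0.95 on the DN arrays, 0.053, -0.049 and -0.0046 on the DP arrays, -1.18, -1.73 and -1.57 on the CD4SP arrays and -0.77, -0.58 and -0.69 on the CD8SP arrays, and no 2 groups overlapped. It fell in each step, by 1.11 ± 0.13 from DN to DP, 1.49 ± 0.13 from DP to CD4SP and 0.68 ± 0.13 from DP to CD8SP. Dut, the dUTPase that keeps uracil out of DNA, did likewise, by 1.18 ± 0.16, 1.58 ± 0.16 and 0.69 ± 0.16.

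Tyms, thymidylate synthase, was the only gene of this group with no call outside the comparison of CD4SP with DN. It lay at 0.48, -0.39 and 0.068 on the DN arrays, 0.22, -0.27 and 0.052 on the DP arrays, -0.48, -0.50 and -0.66 on the CD4SP arrays and -0.0075, -0.57 and -0.50 on the CD8SP arrays, so the DN arrays spread over more than the largest difference between group means. Its 4 probe sets disagreed in DP against DN, where 1 was called higher (1.02, adjusted p = 0.00661) and 1 lower (-0.77, adjusted p = 0.0158). The probe set called higher there was also higher in CD4SP against DN (0.92), while others were called lower (-1.18 and -1.25). In CD8SP against DN the same probe sets were called in opposite directions (0.79, against -0.72 and -1.20). The direction of Tyms against DN thus depends on the probe set. Tyms was called lower from DP to CD4SP (-0.55 ± 0.22 in the full fit) without DN replicate 1 (-0.55, adjusted p = 0.0454) or DN replicate 2.

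Chaf1b, a subunit of the factor that deposits histones behind the fork, and Slbp, the binding protein of histone mRNA, differed in where they changed. Chaf1b lay at 0.61, 0.60 and 0.55 on the DN arrays, -0.028, 0.076 and -0.047 on the DP arrays, 0.024, -0.015 and 0.039 on the CD4SP arrays and -0.024, 0.20 and 0.11 on the CD8SP arrays: the DN arrays were high and the other 3 groups overlapped. It fell by 0.59 ± 0.077 from DN to DP as the mean of 2 probe sets, of which 1 fell by 1.25 and the other differed by 0.08. Slbp lay at 0.51, 0.095 and 0.13 on the DN arrays, 0.17, -0.085 and -0.084 on the DP arrays, -0.91, -1.38 and -1.52 on the CD4SP arrays and -0.11, -0.24 and -0.38 on the CD8SP arrays. The CD4SP arrays lay far below the rest, and the CD8SP arrays lay just below those of DP. Slbp fell by 1.27 ± 0.17 from DP to CD4SP (adjusted p = 0.00015), differed by -0.24 ± 0.17 from DP to CD8SP, and was 2.04-fold lower in CD4SP than in CD8SP (-1.03 ± 0.17, limma, adjusted p = 0.00286). In CD8SP against DN, Slbp (-0.49 ± 0.17) lost its call without DN replicate 1 (-0.36, adjusted p = 0.133) or CD8SP replicate 2 or 3.

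The E cyclins, which activate CDK2 at the G1/S transition, were called in opposite directions in CD8SP. Ccne1 lay at 0.76, 0.74 and 0.49 on the DN arrays, -0.057, 0.059 and -0.0019 on the DP arrays, 0.038, -0.40 and -0.22 on the CD4SP arrays and 0.82, 0.67 and 0.62 on the CD8SP arrays. Its DN and CD8SP arrays overlapped, above all DP and CD4SP arrays. Ccne1 fell by 0.66 ± 0.12 from DN to DP and rose by 0.70 ± 0.12 from DP to CD8SP (1.63-fold, limma, adjusted p = 0.000794), while CD4SP differed from DP by -0.19 ± 0.12 and from CD8SP by -0.89 ± 0.12 (adjusted p = 0.000935). Both of its probe sets were called higher in CD8SP than in DP (0.68 and 0.72).

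Ccne2 lay at 0.94, 0.47 and 0.52 on the DN arrays, 0.21, -0.17 and -0.043 on the DP arrays, -1.57, -2.11 and -2.01 on the CD4SP arrays and -1.26, -1.60 and -1.64 on the CD8SP arrays, so both single-positive subsets lay more than 1 log2 unit below DP. It fell by 1.90 ± 0.18 in CD4SP (3.72-fold, adjusted p = 1.39e-05) and by 1.50 ± 0.18 in CD8SP (2.83-fold, limma, adjusted p = 6.81e-05), and the subsets overlapped (-0.40 ± 0.18, not called). Its fall from DN to DP (-0.64 ± 0.18, adjusted p = 0.0167) was lost without DN replicate 1 (-0.49, adjusted p = 0.0628), DP replicate 2 or DP replicate 3.

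**Figure D3:**
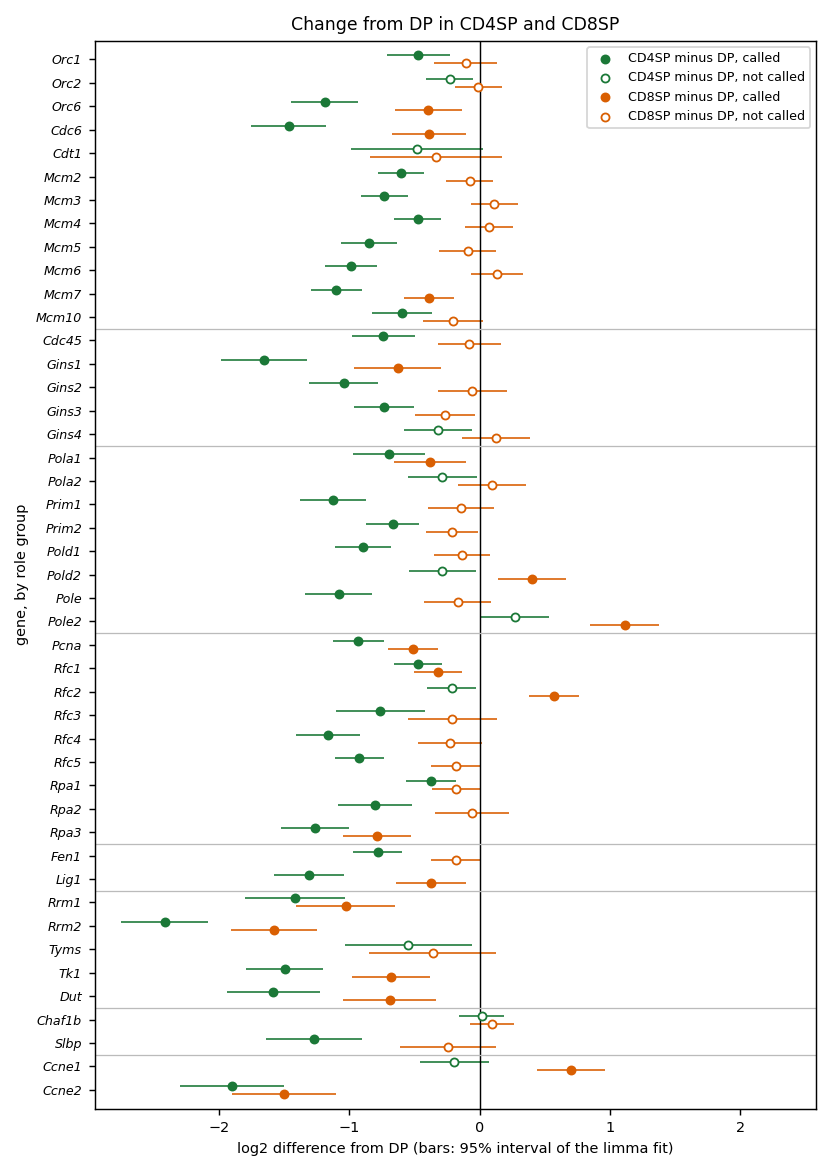
Log2 difference from DP of each replication gene in CD4SP (green) and CD8SP (orange), with the 95% interval of the limma fit as bars; filled points were called and open points were not. The green points lie left of the orange ones for all 45 genes, and Pole2, Ccne1, Rfc2 and Pold2 are the filled points right of 0, all in CD8SP.

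Other genes of the same processes were read from lists outside the 45. Among 35 origin and fork genes the direction was the same in most steps. From DN to DP 21 fell and 1 rose, Top1 (0.45 ± 0.12), the topoisomerase that relaxes DNA ahead of the fork, and from DP to CD4SP 23 fell and 2 rose. From DP to CD8SP 14 fell and 6 rose, and 18 were lower in CD4SP than in CD8SP with 0 higher. Uhrf1, which guides maintenance DNA methylation to new strands, lay at 0.69, 0.65 and 0.65 on the DN arrays, -2.29, -2.79 and -2.82 on the CD4SP arrays and -1.47, -1.38 and -1.51 on the CD8SP arrays, and fell by 2.64 ± 0.15 and 1.45 ± 0.15 from DP. Gmnn, geminin, which blocks relicensing, fell by 1.51 ± 0.12 in CD4SP and 0.49 ± 0.12 in CD8SP. The genes that rose in CD4SP were Mcmbp (0.47 ± 0.084), a binding partner of MCM proteins, and Pold4 (0.66 ± 0.15), the smallest subunit of polymerase delta. In CD8SP these 2 rose again (0.42 ± 0.084 and 0.86 ± 0.15), with Pole4 (0.47 ± 0.081), Rnaseh2c (0.44 ± 0.10), Rnaseh2a (0.35 ± 0.12) and Timeless (0.32 ± 0.11).

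The 25 E2F, pocket protein and G1/S control genes moved in both directions from DN to DP, 8 higher and 7 lower, and 15 fell and 1 rose in each single-positive subset against DP. Of all genes 17.8% were called higher and 18.8% lower from DN to DP. E2f1, an activating E2F, lay at 0.70, 0.64 and 0.67 on the DN arrays, 0.083, 0.055 and -0.14 on the DP arrays, -0.076, -0.23 and -0.35 on the CD4SP arrays and 0.16, 0.31 and 0.25 on the CD8SP arrays, and was lower in CD4SP than in CD8SP by 0.45 ± 0.092 (limma, adjusted p = 0.00903). E2f2, also an activator, peaked in DP: it lay at -0.90, -1.45 and -1.43 on the DN arrays and at -2.37, -2.66 and -2.69 and -2.05, -2.33 and -2.26 on the CD4SP and CD8SP arrays. It rose by 1.26 ± 0.16 from DN to DP and fell by 2.57 ± 0.16 and 2.21 ± 0.16 after it. E2f3 fell by 1.24 ± 0.11 from DN to DP and was not called after it, and Tfdp1, a partner of E2F proteins, fell in all 3 steps (-0.75 ± 0.086, -0.77 ± 0.086 and -0.60 ± 0.086). The pocket protein genes Rbl2 and Rb1 rose from DN to DP (1.24 ± 0.12 and 0.58 ± 0.10), and both were higher in CD4SP than in CD8SP (0.58 ± 0.12 and 0.49 ± 0.10), with Tfdp2 (0.30 ± 0.068) the third of 3 called higher there. The means of Rbl2 lay below DP in CD4SP (-0.40) and CD8SP (-0.98), as did those of Rb1 (-0.44 and -0.94).

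Nucleotide genes outside the 45 include genes of salvage, folate and purine metabolism. Of 23 genes 17 fell and 1 rose from DN to DP, with a median difference of -1.37. From DP to CD4SP 10 rose and 5 fell, and from DP to CD8SP 16 rose and 3 fell, where the members' nucleotide genes had 0 that rose. Of all genes 16.4% and 18.2% were called higher in these comparisons. Shmt2, the mitochondrial serine hydroxymethyltransferase of folate metabolism, lay at 2.74, 2.67 and 2.53 on the DN arrays, 0.43, 0.34 and 0.41 on the CD4SP arrays and 1.20, 1.57 and 1.48 on the CD8SP arrays, and rose by 1.42 ± 0.11 from DP to CD8SP. Dctd, the dCMP deaminase, fell by 2.65 ± 0.082 from DN to DP and rose by 0.97 ± 0.082 and 1.08 ± 0.082 after it.

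Samhd1 and Dck, of deoxynucleotide breakdown and salvage, went in opposite directions after DP. Samhd1, which hydrolyses deoxynucleotide triphosphates, lay at 0.73, 1.69 and 1.63 on the DN arrays, 0.10, -0.28 and 0.18 on the DP arrays, 4.28, 4.49 and 4.54 on the CD4SP arrays and 3.23, 3.57 and 3.72 on the CD8SP arrays. It rose by 4.44 ± 0.24 from DP to CD4SP (21.6-fold, limma, adjusted p = 2.47e-07) and by 3.51 ± 0.24 from DP to CD8SP (11.4-fold), and was higher in CD4SP than in CD8SP by 0.93 ± 0.24 (adjusted p = 0.0293). Samhd1 also fell by 1.35 ± 0.24 from DN to DP, where myeloid cells, which are known to carry it, had higher markers on the DN arrays, and their part was not tested. Dck, the deoxycytidine kinase of the salvage route, was highest in DP, with -1.06, -1.14 and -0.99 on the DN arrays, -2.46, -2.57 and -2.63 on the CD4SP arrays and -2.29, -2.16 and -2.23 on the CD8SP arrays. It rose by 1.06 ± 0.079 from DN to DP and fell by 2.56 ± 0.079 (5.88-fold) and 2.22 ± 0.079 after it.

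Mitosis genes had few calls between DN and DP. Of 29 mitosis genes 4 rose from DN to DP (Top2a, Cenpf, Nusap1 and Cenpa) and 0 fell, with a median difference of 0.32, where 36 of 45 replication genes fell. The share of the 29 called, all higher, was 13.8%, below the 17.8% of all genes called higher and the 36.6% called in either direction. From DP to CD4SP all 29 fell, with a median of -1.96, and from DP to CD8SP 28 fell, with a median of -1.20. Cdk1, the mitotic kinase, lay at 0.16, -0.21 and -0.34 on the DN arrays, 0.26, -0.15 and -0.11 on the DP arrays, -1.77, -2.62 and -2.43 on the CD4SP arrays and -1.04, -1.27 and -1.34 on the CD8SP arrays. Against CD8SP, 10 of the 29 were lower in CD4SP and 0 higher, with a median of -0.72. Top2a, which untangles sister chromatids, rose by 1.02 ± 0.33 from DN to DP (adjusted p = 0.0338) and differed between the single-positive subsets by -0.58 ± 0.33, not called. The mean of the mitosis list was highest on replicate 1 of every group (0.06 for DN, 0.28 for DP, -1.51 for CD4SP and -1.07 for CD8SP), and the mean of the 45 replication genes was highest on replicate 1 in DN, DP and CD4SP (0.87, 0.10 and -0.75) and lowest on it in CD8SP (-0.28).

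**Figure D4:**
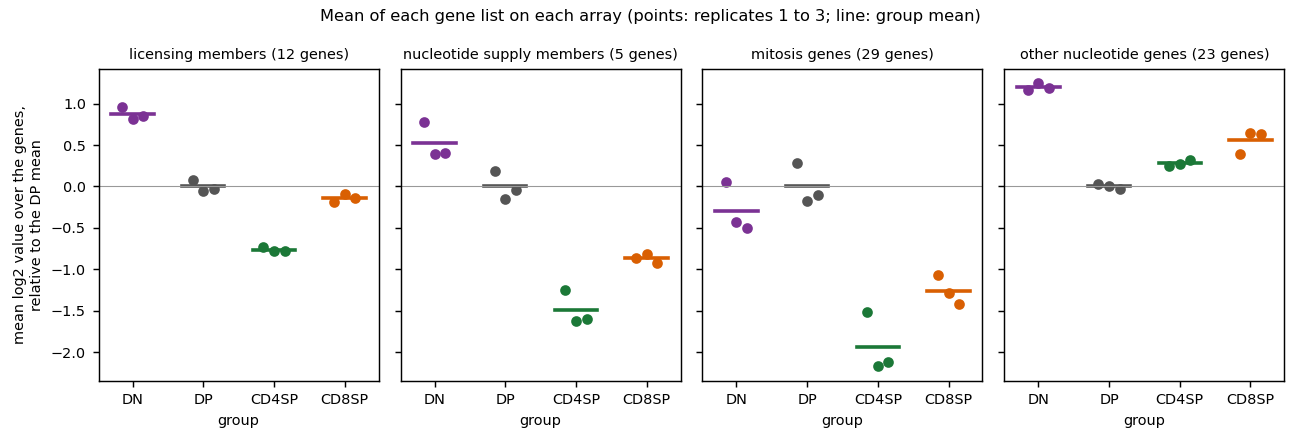
Mean log2 value relative to the DP mean over the genes of a list (y axis) on each array (points) by group (x axis), with the group mean as a line. From left to right, 12 licensing genes and 5 nucleotide supply genes of the replication list, 29 mitosis genes and 23 other nucleotide genes; licensing falls from DN to DP and stays near DP in CD8SP, mitosis genes lie lowest in both single-positive subsets, and the other nucleotide genes lie above DP in both.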

How the data were processed

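Total RNA of 12 arrays, 3 for each of 4 sorted subsets, was hybridised to Affymetrix mouse chips, per the labels' protocols, and the titles gave each array's group and number. The deposited values are logs per probe set, read here as log2 (base not given in the sources used here), from which the mean of the 3 DP arrays had been subtracted, as the values show (largest absolute DP mean 1.27e-06). The submitters' processing notes name MAS5, with no version and no role. Levels and signal over background are therefore lost, and no filter on dim probe sets was possible. No further normalization was applied.

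Of 45101 probe sets 64 controls were left out, and 34945 with 1 gene symbol in the platform annotation were averaged per gene, for 18193 genes. Probe sets with several symbols (932) or none there (9160) were not used. The main model, with 1 mean for each of 4 groups over all 12 arrays, used lmFit, contrasts.fit and eBayes (no trend) of limma 3.58.1 under R 4.3.3. P-values are two-sided and Benjamini-Hochberg adjusted over all genes within each of 6 comparisons. The fit was tested on simulated data. Promoter windows came from RefSeq (GRCm38.p6), matched by symbol for 37 of 45 genes.

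The members and lists were chosen with earlier results of these data known. All members could be named, and values on every array were given for those with the largest called change, those called against their role group, and subunits of shared complexes. From each other list, called genes with the lowest adjusted p (up to 4 a comparison) and those called against the majority could be named. The alternatives were another choice of probe set, leaving out probe sets of the _s_at and _x_at kinds, quantile normalization, median centring, a variance trend, array weights, the 6 arrays compared alone, a replicate block, a threshold of 0.01, each array left out, and DN replicate 1 and CD8SP replicate 1 left out together.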

Additional observations from a re-analysis of the deposited data

Results flagged for a closer look

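The direct comparison of the single-positive subsets is also the test of whether the change from DP differed between them, and it called 34 of the 45 replication genes, where it called 12.7% of all genes. Each value is the change from DP in CD4SP minus that in CD8SP on the log2 scale (limma, adjusted p under 0.05 over all genes), and all 34 are below 0. Among the licensing genes it was -1.12 for Mcm6, -1.08 for Cdc6, -0.85 for Mcm3, -0.79 for Orc6, -0.75 for Mcm5, -0.71 for Mcm7, -0.55 for Mcm4, -0.52 for Mcm2 and -0.39 for Mcm10. Among the genes of helicase activation it was -1.02 for Gins1, -0.98 for Gins2, -0.66 for Cdc45, -0.47 for Gins3 and -0.44 for Gins4.

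For the polymerases and primase the difference was -0.98 for Prim1, -0.91 for Pole, -0.84 for Pole2, -0.76 for Pold1, -0.69 for Pold2 and -0.46 for Prim2. For the clamp, its loader and RPA it was -0.93 for Rfc4, -0.79 for Rfc2, -0.74 for Rpa2, -0.74 for Rfc5, -0.55 for Rfc3, -0.47 for Rpa3 and -0.42 for Pcna. Lig1 (-0.94) and Fen1 (-0.60) of Okazaki maturation differed, as did Dut (-0.89), Rrm2 (-0.84) and Tk1 (-0.82) of nucleotide supply, Slbp (-1.03) and the cyclin Ccne1 (-0.89). In Pole2, Ccne1, Rfc2 and Pold2 the difference joins a rise from DP in CD8SP to a change in CD4SP that was not called.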

How the results depend on the processing

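Across 6 comparisons, 23 alternatives and 45 genes, 5874 of the values kept their direction and their side of the threshold, 196 lost the call and 81 gained one in the same direction. The sign changed in 59 values, of which 13 were called in either fit and 46 in neither. Leaving out 1 array at a time, the number of genes lower was 33 to 38 in DP minus DN, 35 to 39 in CD4SP minus DP, 10 to 15 in CD8SP minus DP, 29 to 35 in CD4SP minus CD8SP, 44 to 45 in CD4SP minus DN and 38 to 42 in CD8SP minus DN. The number higher was 0 to 1 in CD4SP minus DP and 3 to 5 in CD8SP minus DP, where it was 0 and 4, and 0 in the other 4 comparisons. The 1 gene higher in CD4SP than in DP, without CD8SP replicate 1 and again with array weights (1), was Pole2.

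Quantile normalization lowered the calls most: 3 genes were then lower in CD8SP than in DP (14 in the full fit) and 9 lower in CD4SP than in CD8SP (34). The share of all genes called went from 39.0% to 15.2% in the former and from 12.7% to 1.26% in the latter. This setting forces one distribution of values on all arrays, in a table from which the DP mean of each gene had been subtracted. Its part in the lost calls was not tested. At a threshold of 0.01, 9 genes were lower in CD8SP than in DP, where 27.1% of all genes were called. Reading each gene by its probe set of highest mean relative to DP, 1 gene, Cdc45, was higher in CD8SP than in DN.

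The choice of probe set turned the sign of the 13 values called in either fit, in Cdc45, Pola1, Prim2 and Chaf1b, and of 15 of the 46 others. With the DP mean subtracted, the highest mean marks the probe set that lies highest relative to DP, not the brightest. This choice thus favours probe sets that fall little from DP. Over all genes it moved the median CD4SP minus DP difference from 0.036 to 0.10, and that of CD8SP minus DP from 0.0018 to 0.099. Read by the highest-mean probe set, Cdc45 differed by 0.010 in CD4SP minus DP, 0.40 in CD4SP minus DN and 0.67 in CD8SP minus DN, and Pola1 by 0.092 in CD4SP minus DP, 0.35 in CD4SP minus DN and 0.090 in CD8SP minus DN. Read by the probe set of smallest spread, Prim2 differed by 0.18 in DP minus DN, 0.00037 in CD4SP minus DP, 0.085 in CD4SP minus CD8SP, 0.18 in CD4SP minus DN and 0.095 in CD8SP minus DN, and Chaf1b by 0.081 in DP minus DN and 0.092 in CD4SP minus DN.

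The replicate numbers recur in each group. Deviations from the group means correlated by 0.11 to 0.16 between arrays numbered 1, by -0.03 to 0.09 between those numbered 2, by 0.02 to 0.14 between those numbered 3 and by -0.16 to 0.08 between different numbers, and 11 of 12 arrays correlated best with their own number, a hint from the data and not the design. With the number as a replicate block, 37, 37, 14, 36, 45 and 43 genes were lower in the 6 comparisons in the order given above, and 4 were higher in CD8SP minus DP. Signal over background is unknown in these values, so changes of dim probe sets may be understated.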
